A study of Mus musculus with 6 samples.

Results

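The genes described here serve the exchange of histones for protamines in elongating spermatids, the haploid germ cells that compact their nuclei in the last phase of sperm formation. They encode the protamines (Prm1, Prm2 and the protamine 3 gene Prm3), the transition proteins (Tnp1 and Tnp2), the spermatid linker histones (Hils1 and H1fnt) and nuclear factors that act on chromatin before or during the exchange (Brdt, Chd5 and Rnf8). The 10 genes were chosen by name, for this known role, with earlier results of these data known. All 10 were found among the 55536 genes of the count table, and all 10 were among the 20744 genes with enough counts to be tested.

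In round spermatids DNA is still wound around nucleosomes. Histone hyperacetylation, read by the bromodomain protein BRDT, precedes the removal of histones, transition proteins occupy the DNA for a time, and protamines then take their place and pack it into toroids. Protamines bind DNA through runs of arginine, and the genes for protamines and transition proteins are transcribed in round spermatids and their mRNAs stored for later translation. Peptidylarginine deiminases (PADs), the enzymes encoded by Padi genes, convert arginine in proteins to citrulline, and histones are among their known substrates. Only mRNA was measured, so neither the proteins nor their citrullination nor chromatin compaction were read.

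Poly(A)-selected testis RNA was sequenced from 4-month-old male mice of 3 genotypes, with 2 mice per genotype and 1 library per mouse. WT mice were FVB/NJ. P2KO mice carried a Padi2 gene trap on the FVB/NJ background, in which coding sequence of exon 1 is replaced by LacZ and neomycin sequence. DKO mice carried the same Padi2 allele and, in addition, a 4-nucleotide deletion in exon 1 of Padi4 made by CRISPR/Cas9 in P2KO embryos, and the line goes back to 1 founder. A Padi4 single knockout was not analysed here, so what Padi4 adds is seen only on top of the Padi2 allele, and an effect of the founder or line cannot be told apart from an effect of genotype. The library totals ran from 21939393 to 27306679 counts. Padi2 had 47 and 64 counts in the libraries labelled WT, 100 and 55 in those labelled P2KO and 59 and 83 in those labelled DKO, and Padi4 had 20 and 43, 11 and 10, and 4 and 4 counts. The Padi4 counts were low, did not overlap between the genotypes and were lowest in the libraries labelled DKO. Padi2 was not lower in the libraries labelled knockout. By RT-PCR of salivary gland the authors found no Padi2 transcripts in P2KO or DKO mice. The counts here cover the whole gene, while the allele replaces part of exon 1. Why the testis counts differ from the RT-PCR was not tested, and they do not verify the Padi2 genotype of these libraries.

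The arginine content of the basic members can be read from their coding sequences. The coding sequences of Prm1 and Tnp1, the members that passed the test in DKO testis, are shown 5′ to 3′ with the codons for arginine in capitals, as given by the GENCODE mouse release 21 annotation of GRCm38.
Prm1: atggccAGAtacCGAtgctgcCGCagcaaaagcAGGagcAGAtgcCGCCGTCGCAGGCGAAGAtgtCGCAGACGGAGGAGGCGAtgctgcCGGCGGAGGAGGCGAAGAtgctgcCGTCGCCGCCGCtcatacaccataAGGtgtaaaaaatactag
Tnp1: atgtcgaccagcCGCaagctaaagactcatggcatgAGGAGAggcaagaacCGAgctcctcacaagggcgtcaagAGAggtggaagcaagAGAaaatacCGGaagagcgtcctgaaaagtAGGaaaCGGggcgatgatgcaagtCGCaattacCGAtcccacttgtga

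Arginine took 28 of the 51 codons of Prm1 (54.9%), the highest share of all 21522 genes with a coding sequence, and 38 of the 107 codons of Prm2 (35.5%), the second highest. The transition proteins had lower shares, with 11 of 55 codons in Tnp1 (20.0%, rank 17) and 16 of 117 in Tnp2 (13.7%, rank 166). H1fnt, a long and basic linker histone variant, reached 65 of 398 codons (16.3%, rank 62), whereas Hils1 had 12 of 170 (7.06%). The median of all genes was 5.36%, and Brdt (4.50%), Chd5 (5.64%) and Rnf8 (6.35%) lay close to it. Prm3 went against its name, with 2 arginine codons of 101 (1.98%, rank 21030), and is known to encode an acidic protein. The genes so range from the most arginine-rich coding sequence of the annotation to one of the poorest.

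**Figure D1:**
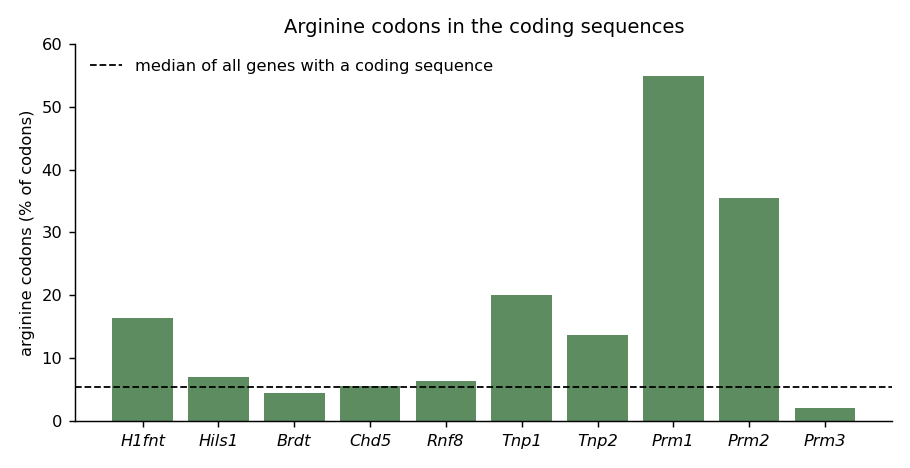
Share of codons that encode arginine (y axis, percent of all codons without the stop codon) in the coding sequence of each of the 10 genes (bars), with the median of 21522 genes as a dashed line. Prm1 and Prm2 stand at 54.9% and 35.5%, and Prm3 is the lowest bar at 1.98%.

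Prm1, Prm2, Prm3 and Tnp2 lie side by side on the minus strand of chromosome 16 within 17.9 kb (chr16:10787936-10805839, GRCm38), with no other gene on that strand between them in the annotation. Tnp1 lies on the minus strand of chromosome 1 (chr1:73015074-73015909), Hils1 on the plus strand of chromosome 11 (chr11:94967593-94968456) and H1fnt on the minus strand of chromosome 15 (chr15:98255986-98257293). Chd5 is on the plus strand of chromosome 4 (chr4:152338651-152390194), the chromosome of the Padi genes, 11.4 Mb from Padi2. Because Tnp1 and Prm1 gave nearly the same pattern across the libraries while lying on different chromosomes, and Tnp2 gave another pattern from within the cluster, the 150 bases before the transcription start are printed for these genes and for Prm2. The sequences are from RefSeq (GRCm38.p6), 5′ to 3′ on the gene's strand, with matches to TGACNTCA (a loose form of the cAMP response element, searched on both strands) and to TATA in capitals.
Prm1 promoter, chr16:10796824-10796973, minus strand: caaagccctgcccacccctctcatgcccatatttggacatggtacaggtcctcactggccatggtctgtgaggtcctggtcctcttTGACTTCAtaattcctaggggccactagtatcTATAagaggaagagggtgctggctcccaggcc
Prm2 promoter, chr16:10792106-10792255, minus strand: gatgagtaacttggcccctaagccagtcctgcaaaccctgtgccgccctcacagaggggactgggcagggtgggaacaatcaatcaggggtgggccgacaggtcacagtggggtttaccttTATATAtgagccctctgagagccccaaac
Tnp1 promoter, chr1:73015900-73016049, minus strand: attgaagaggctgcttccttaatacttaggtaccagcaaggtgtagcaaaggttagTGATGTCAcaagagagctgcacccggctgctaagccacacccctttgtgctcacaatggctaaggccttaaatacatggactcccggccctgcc
Tnp2 promoter, chr16:10788656-10788805, minus strand: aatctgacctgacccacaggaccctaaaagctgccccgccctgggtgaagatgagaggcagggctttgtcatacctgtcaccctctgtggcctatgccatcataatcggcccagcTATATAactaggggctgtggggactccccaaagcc

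TGACNTCA was found within the 250 bases before the start of 3 of the 10 genes, Prm1, Prm3 and Tnp1, and in 7.49% of all 32851 RefSeq promoter windows. The match begins 64 bases before the start of Prm1 and 94 bases before that of Tnp1. TATA was found in 6 of the 10 windows and in 34.0% of all windows, and in Prm1, Prm2 and Tnp2 it lies 27 to 35 bases before the start. The full palindrome TGACGTCA was found in none of the 10 windows and in 1.55% of all. These motifs were chosen after the windows had been read, and a match is a match of letters only. The Ensembl genes Prm1 and Prm2 each hold 2 transcripts, of which the longer reaches upstream of the RefSeq start used here.

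In WT testis the levels of the 10 genes spanned about 4 orders of size. Per kilobase of merged exons, Prm2 had 148960 ± 459 normalized counts (SD, n = 2) and Tnp2 144720 ± 5833, and they ranked 3 and 4 of the 20744 tested genes. Prm1 (97298 ± 5136) and Tnp1 (87772 ± 3395) ranked 6 and 7. The WT ranges of Prm2 and Tnp2 overlapped on this scale, though Tnp2 lay below Prm2 in each library, and those of Prm1 and Tnp1 did not overlap. Hils1 (14631 ± 584) and H1fnt (12032 ± 282) ranked 44 and 62, and Prm3 (5978 ± 170.01) ranked 193. Brdt (1507 ± 18.5) and Chd5 (1469 ± 180.3) ranked 1119 and 1145 and could not be ordered, since the WT libraries of Chd5 lay on either side of those of Brdt. Rnf8 had 9.76 ± 0.737 and ranked 17619. Rnf8 shares 1542 exon bases with the overlapping gene Gm28043 on the same strand, and read pairs that overlap more than 1 gene are left uncounted by STAR, so its level and rank are uncertain. The 10 genes together took 1.44% and 1.51% of all counts in WT, 1.25% and 1.36% in P2KO and 1.31% and 1.32% in DKO.

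The libraries labelled P2KO and DKO held modestly less of some of the most abundant of these mRNAs than the WT libraries. Of the 10 genes, 1 fell in P2KO against WT (Tnp2, by 18.2%) and 2 fell in DKO against WT (Prm1 by 13.9% and Tnp1 by 16.1%), at a Benjamini-Hochberg adjusted p under 0.05 in edgeR's quasi-likelihood test, adjusted over all tested genes. None of the 10 rose in either comparison. DESeq2 on all 6 libraries did not call Prm1 or Tnp1 in DKO against WT (adjusted p 0.0665 and 0.393). Neither gene passed in edgeR's quasi-likelihood test with an offset for gene length (adjusted p 0.325 and 0.194). Tnp2 in P2KO against WT was called under both settings. DESeq2 is also the tool that the authors used for differential expression. At an unadjusted p under 0.05 the quasi-likelihood test gave 5 lower and 0 higher genes in P2KO and 5 lower and 2 higher (Brdt and Chd5) in DKO. The share of all tested genes at that unadjusted threshold is not given. Here and below, counts at an unadjusted p therefore have no background to be read against. At the adjusted threshold, 0.337% of all tested genes were called in P2KO against WT (0.14% lower and 0.198% higher). In DKO against WT 3.22% were called (1.16% lower and 2.06% higher). Of the genes called in DKO, 64.1% were higher, and 53.3% under upper-quartile scaling. That share was 47.6% without WT 2, where most calls were lower, 51.6% without DKO 2 and 71.6% without WT 1. The fold changes of the other members were smaller than these or less certain, and the 2 knockout genotypes were compared with the same WT libraries. With 2 mice per genotype these p-values rest on the spread within all 3 genotypes (3 residual degrees of freedom) and on its pooling over genes. The genotype left out of a comparison thus adds to its spread. An exact permutation test of 1 gene cannot pass 0.05. In whole testis, fewer elongating spermatids and less mRNA per spermatid cannot be told apart.

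The factors that act on nucleosomes come first in the sequence of events. BRDT is the testis-specific bromodomain protein that binds acetylated histone H4. Normalized counts of Brdt (counts scaled to a common library size) were 7778 and 7644 in WT, 8108 and 8052.5 in P2KO and 8688 and 8342.5 in DKO. Both libraries of either knockout lay above both WT libraries, yet the log2 fold changes of 0.068 (SE 0.0557) in P2KO and 0.14 (SE 0.0557) in DKO gave adjusted p of 0.808 and 0.193. CHD5 is a chromatin remodeller of spermatids that mice need for normal compaction. Chd5 had 15303 and 12859 normalized counts in WT, 15027 and 15448 in P2KO and 15633 and 15687 in DKO. The WT libraries differed more from each other than any other pair, and WT 1 overlapped with P2KO. The log2 fold change of Chd5 was 0.11 (SE 0.0611, adjusted p 0.620) in P2KO and 0.15 (SE 0.0612, adjusted p 0.206) in DKO, and 1 WT library decided it. Without WT 1 it was 0.24 and 0.28 with adjusted p of 0.00965 and 0.000324, and without WT 2 it was -0.0070 and 0.033. Wherever 1 library is left out, its genotype has a single library, which the fit assumes to vary like the others.

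RNF8 is a ubiquitin ligase of the DNA damage response that has been linked to histone ubiquitination in spermatids. Its raw counts were low for this set, at 96 and 130 in WT, 120 and 110 in P2KO and 95 and 97 in DKO. After scaling, both DKO libraries (91.0 and 103) lay below both WT libraries (108 and 120.3), with a log2 fold change of -0.24 whose 95% interval ran from -0.60 to 0.12. An interval of this width includes changes as large as any seen in the other members, so no difference of Rnf8 was detectable at this depth.

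The linker histone variants are made only in germ cells, H1FNT (also called H1T2) in the nuclear cap of round and elongating spermatids and HILS1 in elongating spermatids. H1fnt had 15999 and 15477 normalized counts in WT, 14185 and 14025 in P2KO and 14777 and 15075 in DKO. The genotypes did not overlap, with P2KO the lowest and DKO between P2KO and WT. Its log2 fold change was -0.16 in P2KO (SE 0.0533, adjusted p 0.301) and -0.076 in DKO (SE 0.0533, adjusted p 0.580). Hils1 had 12284 and 12998 in WT, 11894 and 11714 in P2KO and 12230 and 11516 in DKO. The knockout libraries all lay below WT, though DKO 1 by little, and the log2 fold changes of -0.099 (adjusted p 0.648) and -0.090 (adjusted p 0.503) did not pass.

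Of the transition protein genes, Tnp2 was called in P2KO and Tnp1 in DKO, and the difference between the genes was not tested. Tnp2, the larger and zinc-binding of the pair, had 77887 and 82457 normalized counts in WT, 64884 and 66325 in P2KO and 71857 and 73913 in DKO. The genotypes did not overlap, and as for H1fnt the P2KO libraries were the lowest. Tnp2 fell by 0.29 on the log2 scale in P2KO (SE 0.0495, 95% interval -0.39 to -0.19, adjusted p 0.000762). The call held in 14 of 15 alternative analyses and was lost without P2KO 1 (log2 fold change -0.27, adjusted p 0.0784). In DKO the log2 fold change of Tnp2 was -0.14 (SE 0.0494, adjusted p 0.143), which passed in 2 of 15 alternatives, without WT 1 (-0.18, adjusted p 0.0116) and without a filter on low counts (-0.14, adjusted p 0.0301). It was -0.097 without WT 2 (adjusted p 0.546) and -0.044 with an offset for gene length (adjusted p 0.782).

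Tnp1, which encodes the smaller protein of the pair, had 37307 and 39406 normalized counts in WT, 29843 and 36183 in P2KO and 31280 and 33108 in DKO. All 4 knockout libraries lay below both WT libraries, and the P2KO libraries were far apart, with P2KO 1 the lowest of the 6. Tnp1 fell by 0.25 on the log2 scale in DKO (SE 0.0620, 95% interval -0.38 to -0.13, adjusted p 0.0130). The log2 fold change in P2KO was -0.22 (SE 0.0620, adjusted p 0.164). The DKO call was lost without DKO 1 (-0.22, adjusted p 0.228), without DKO 2 (-0.30, adjusted p 0.0636), with DESeq2 on all 6 libraries (-0.25, adjusted p 0.393) and with an offset for gene length (-0.15, adjusted p 0.194, and 0.156 with the replicate block added). The P2KO value passed without a filter on low counts (-0.22, adjusted p 0.00103), without WT 1 (-0.26, adjusted p 0.00189) and without P2KO 2 (-0.37, adjusted p 0.00506), whereas without P2KO 1 it was -0.084 (adjusted p 0.817).

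The protamines are the last of the sequence, and of these Prm1 was close to Tnp1 in its pattern. Prm1 had 53483 and 57631 normalized counts in WT, 44519 and 52452 in P2KO and 46997 and 48702 in DKO. As for Tnp1, the 4 knockout libraries lay below both WT libraries and P2KO 1 was the lowest. Prm1 fell by 0.22 on the log2 scale in DKO (SE 0.0586, 95% interval -0.33 to -0.096, adjusted p 0.0302) and had a log2 fold change of -0.20 in P2KO (SE 0.0586, adjusted p 0.214). The DKO call was lost without WT 2 (-0.16, adjusted p 0.0992), without DKO 1 (-0.20, adjusted p 0.269), without DKO 2 (-0.24, adjusted p 0.139), with DESeq2 on all 6 libraries (-0.21, adjusted p 0.0665) and with an offset for gene length (-0.12, adjusted p 0.325, and 0.262 with the replicate block added). The P2KO value passed without a filter on low counts (-0.20, adjusted p 0.00254), without WT 1 (-0.25, adjusted p 0.00126) and without P2KO 2 (-0.32, adjusted p 0.0204), whereas without P2KO 1 it was -0.083 (adjusted p 0.817).

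Prm2, the precursor protamine that is trimmed after it binds DNA, had 132880 and 133460 normalized counts in WT, 111820 and 126600 in P2KO and 122600 and 118840 in DKO. It had the most counts of the set, its WT libraries were nearly equal, and all knockout libraries lay below them. The log2 fold changes of -0.16 in P2KO (SE 0.0516, adjusted p 0.271) and -0.14 in DKO (SE 0.0516, adjusted p 0.151) did not pass. Both passed without a filter on low counts (adjusted p 0.0104 and 0.00969). The P2KO value was -0.073 without P2KO 1 and -0.25 without P2KO 2, and the DKO value was -0.061 with an offset for gene length. Prm3, a single-exon gene between Prm2 and Tnp2, had 2402 and 2500.3 in WT, 2201.5 and 2451 in P2KO and 2219 and 2232 in DKO. DKO lay below WT and P2KO 2 overlapped with WT, with log2 fold changes of -0.077 (adjusted p 0.815) and -0.14 (adjusted p 0.327).

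**Figure D2:**
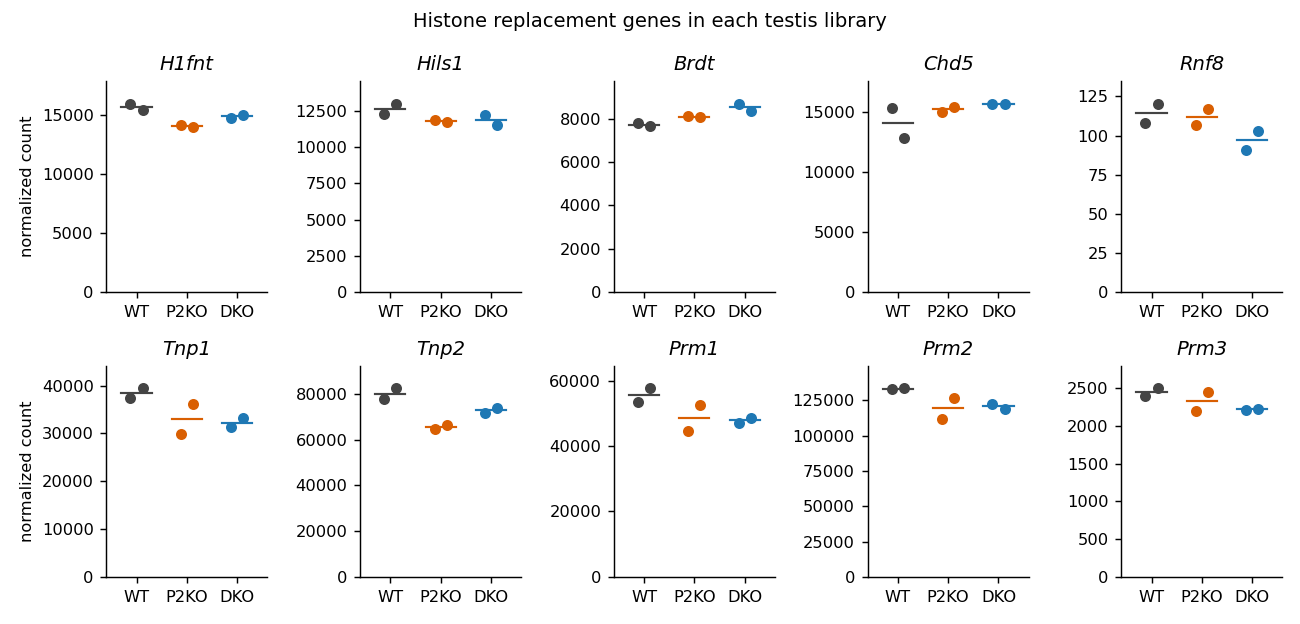
Normalized counts (y axis of each panel, starting at 0) of the 10 genes in the 2 WT, 2 P2KO and 2 DKO libraries (points), with the mean of each genotype as a line. Tnp2 and H1fnt are lowest in P2KO, Tnp1 and Prm1 are spread in P2KO and low in both DKO libraries, and Brdt is higher in the knockouts.

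Counted over the set, both P2KO libraries lay below both WT libraries for 6 of the 10 genes (Prm1, Prm2, Tnp1, Tnp2, Hils1 and H1fnt), against 18.8% of all tested genes, and above them for 1 (Brdt), against 18.7%. Both DKO libraries lay below both WT libraries for 8 genes, the same 6 with Prm3 and Rnf8, against 21.6% of all tested genes, and above them for 2 (Brdt and Chd5), also against 21.6%. The 10 genes had a median of -0.13 (log2 fold change) in P2KO and -0.14 in DKO, where the medians of all tested genes were 0.0035 and -0.0048. With an offset per library for gene length the medians of the 10 were -0.12 and -0.042, and without P2KO 1 that in P2KO was -0.078. The members are transcripts of the same cells and are not independent of each other, and both comparisons use the same 2 WT libraries.

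**Figure D3:**
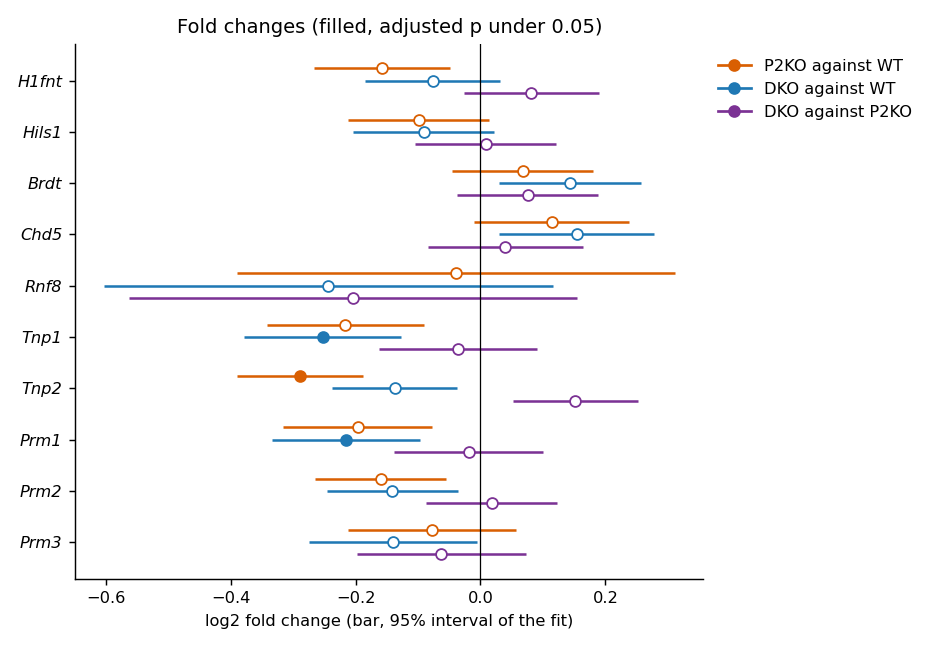
Log2 fold change (x axis) of the 10 genes in P2KO against WT, DKO against WT and DKO against P2KO (colours), with the 95% interval of the fit as a bar and filled points for an adjusted p under 0.05. The 3 filled points are Tnp2 in P2KO and Tnp1 and Prm1 in DKO, between -0.29 and -0.22.

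When DKO was compared with P2KO, which asks what the Padi4 deletion adds, 0 of the 10 genes passed by edgeR's quasi-likelihood test, against 1.21% of all tested genes. At an unadjusted p under 0.05 there was 1 gene, Tnp2, with a log2 fold change of 0.15 (SE 0.0494, adjusted p 0.144). Both DKO libraries of Tnp2 lay above both P2KO libraries, as they did for H1fnt, Brdt and Chd5, against 21.1% of all tested genes, and below them for Rnf8, against 21.6%. Tnp2 passed in 5 of 15 alternatives, edgeR and DESeq2 on the 2 genotypes alone among them, with adjusted p from 0.00193 to 0.0398 in those. The values of Prm1, Prm2, Prm3, Tnp1 and Hils1 lay between -0.063 and 0.018 and turned in sign under some alternatives. The 95% interval for Prm1 ran from -0.14 to 0.10 and that for Tnp1 from -0.16 to 0.090, so that differences of up to about 0.16 on the log2 scale are inside them.

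Fold changes in these libraries moved with gene length, and most of the members are short. Among protein-coding genes with merged exons under 1 kb, the median log2 fold change was -0.021 in P2KO and -0.10 in DKO (591 genes), and among those over 8 kb it was 0.064 and 0.10 (2626 genes). By library, the short genes deviated from their mean log2 CPM by a median of 0.020 and 0.068 in WT. The values were 0.020 and 0.020 in P2KO and -0.049 and -0.060 in DKO. For the long genes they were -0.018 and -0.089, -0.024 and 0.032, and 0.038 and 0.063. WT 1 and P2KO 1 were thus alike, and WT 2 stood apart from WT 1. The merged exons of Prm3 (410 bases), Tnp1 (437), Tnp2 (554), Prm1 (571), Hils1 (864) and Prm2 (894) are all under 1 kb, H1fnt has 1308, and Brdt (5115), Chd5 (9583) and Rnf8 (11703) are long. With an offset per library for gene length, the calls of Prm1 and Tnp1 in DKO were lost. Of the 10 genes 0 passed in DKO against WT under it, where 532 of all 20744 tested genes were called. At an unadjusted p under 0.05, for which no share of all genes is given, 3 were lower and 1 higher. Tnp2 still passed in P2KO against WT under that offset, and it also passed in DKO against P2KO (0.22, adjusted p 0.00255). Whether length, RNA integrity or another property that goes with it is behind this trend was not tested.

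**Figure D4:**
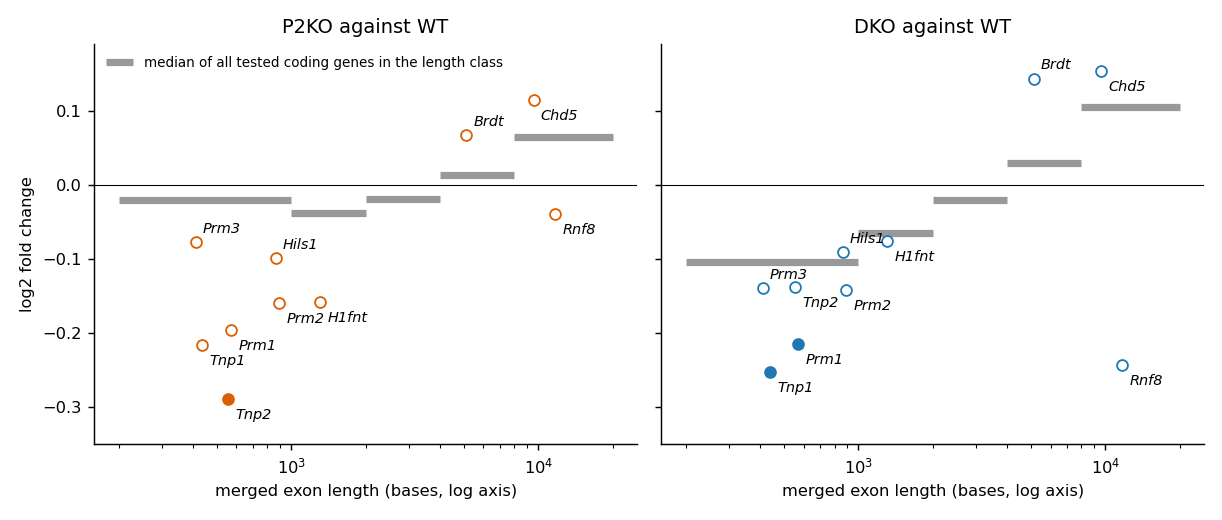
Log2 fold change (y axis) against merged exon length (x axis, bases, log scale) for the 10 genes in P2KO against WT and DKO against WT, filled where the adjusted p was under 0.05, with grey bars for the median of all tested protein-coding genes in 5 length classes. In DKO the medians climb from -0.10 to 0.10 with length, and Prm1 and Tnp1 lie below the median of their class. The outermost bars are drawn to the edge of the plotted range.

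Ratios between members within a library do not depend on how libraries are scaled. Per kilobase, the ratio of Prm1 to Prm2 mRNA was 0.630 and 0.676 in WT, 0.623 and 0.649 in P2KO and 0.600 and 0.642 in DKO. The genotypes overlapped for this ratio, with means of 0.653 ± 0.0325, 0.636 ± 0.0179 and 0.621 ± 0.0293 (SD, n = 2). The ratio of Tnp1 to Tnp2 was 0.607 and 0.606 in WT, 0.583 and 0.692 in P2KO and 0.552 and 0.568 in DKO. Both DKO libraries had a lower ratio than the other 4, while the P2KO libraries lay on either side of WT. The ratio of Tnp1 to Prm1 stayed between 0.870 and 0.911 in all 6 libraries. That of Tnp2 to Prm2 was 0.936 and 0.845 in P2KO and between 0.946 and 1.00 in the other 4 libraries. None of these ratios can reach p under 0.05 in an exact permutation test of 2 against 2 libraries, and no test was run on them.

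**Figure D5:**
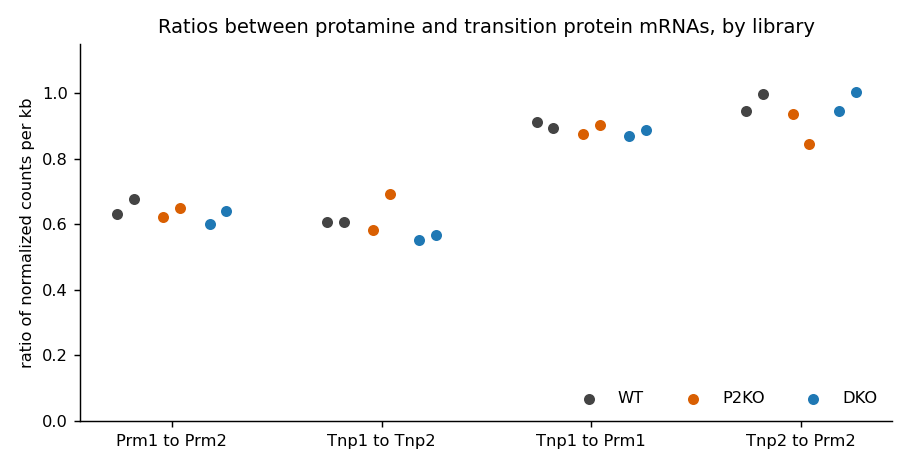
Ratio of normalized counts per kilobase (y axis, starting at 0) for 4 pairs of genes (x axis) in each WT, P2KO and DKO library (points). Tnp1 to Tnp2 is lowest in the 2 DKO libraries, at 0.552 and 0.568, and Tnp1 to Prm1 is nearly constant.

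The genes with the pattern closest to that of each called member were found by the root mean square difference of log2 CPM deviations over the 6 libraries, among 9048 other protein-coding genes with a mean of at least 10 CPM. The nearest gene to Prm1 was Tnp1 and the nearest to Tnp1 was Prm1 (0.0231), followed for Prm1 by Cd63, Gm136, Unc50 and Cypt3 and for Tnp1 by Sdc2, Bex4, Gm136 and Fam131b. The nearest to Tnp2 were Extl2 (0.0289), Tex37, Ccna1, Dolpp1 and Fam192a, and none of the other members was among its 5. With 6 libraries these are descriptions of likeness only.

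Genes that act with the members were taken from lists of the pathway. Of 7 lists, none had a gene that passed in P2KO against WT or in DKO against P2KO, where the shares of all tested genes were 0.337% and 1.21%. At an unadjusted p under 0.05 edgeR gave 5 and 17 of their 84 tested genes in these comparisons. No share of all tested genes at that threshold is given, so these counts are not read as a result. DESeq2 on all 6 libraries called 0 in both. In P2KO against WT 4 listed genes passed without WT 1 and 1 without WT 2. In DKO against P2KO 5 passed by edgeR and 5 by DESeq2 when only the libraries of these genotypes were fitted, 3 without a filter on low counts, 1 under upper-quartile scaling and 1 with the gene length offset and replicate block. In DKO against WT, 9 of the 84 passed, 8 higher and 1 lower, where the shares of all tested genes were 2.06% and 1.16%. DESeq2 called 6 of the 84 on all 6 libraries and 2 on the 2 genotypes, and edgeR called 4 with an offset for gene length and 3 with the replicate block added. For histone acetylation and eviction, 4 of 15 genes rose: the acetyltransferase genes Crebbp (log2 fold change 0.33, adjusted p 0.00903) and Ep300 (0.32, adjusted p 0.0108), Epc1 of the NuA4 complex (0.28, adjusted p 0.0494) and Psme4 (0.21, adjusted p 0.0425), the proteasome activator that recognises acetylated histones. Brd2, one of the 2 most abundant genes of that list, had 0.075. Of ubiquitin and strand break signalling, Herc2 (0.36, adjusted p 0.00129) and Mdc1 (0.26, adjusted p 0.00642) rose among 13 genes, while Phf7, a histone ubiquitin ligase and the most abundant, had 0.028. Of CHD remodellers and histone chaperones, Chd9 (0.44, adjusted p 0.0383) and Supt16 (0.27, adjusted p 0.0125) rose among 19, and the most abundant, Hspa2 and Nasp, had 0.0076 and -0.042.

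The only listed gene that fell was Ybx2, which encodes the germ cell Y-box protein that binds and stores protamine mRNA. Its normalized counts were 61966 and 50243 in WT, 50070 and 53870 in P2KO and 45313 and 43179 in DKO. WT 1 stood above all other libraries and both DKO libraries stood below the other 4. Ybx2 fell by 0.34 on the log2 scale in DKO (SE 0.0631, adjusted p 0.000554), 1 of 10 genes for the storage and translation of these mRNAs, and Pabpc1, the most abundant of them, had 0.033. The Ybx2 call was lost with DESeq2 on all 6 libraries (adjusted p 0.198) and on the 2 genotypes (adjusted p 0.550) and without DKO 2 (-0.31, adjusted p 0.0530). Its log2 fold change was -0.19 without WT 1 and -0.49 without WT 2, and passed in both. No gene passed among the 13 tested of 14 spermatid histone variants (H3f3b -0.15, H3f3a -0.034), the 9 transcription factor genes and cofactors of protamine genes (Rfx2 0.13, Kif17 -0.050) or the 5 kinase and phosphatase genes (Ppp1cc -0.18, Tssk6 -0.15). At an unadjusted p under 0.05, for which no share of all tested genes is given, edgeR gave 2 lower, 2 higher and 2 lower genes of these 3 lists in DKO against WT. Of the histone variants 12 of 13 were below zero in DKO against WT (median log2 fold change -0.17) and 11 of 13 in DKO against P2KO (median -0.18, 4 lower at an unadjusted p under 0.05), and 6 of 13 in P2KO against WT (median 0.014). The medians of all tested genes were -0.0048, -0.0028 and 0.0035. In place of the 4 lower, the gene length offset gave 2 lower and 1 higher, and DESeq2 on all 6 libraries gave 1 lower. The least abundant of these variants had a mean of 0.54 CPM. In DKO against WT 7 of 9 transcription genes were above zero (median 0.079) and 4 of 5 kinase and phosphatase genes below it (median -0.037). Ep300, Crebbp, Psme4, Herc2 and Chd9 did not pass with the gene length offset (log2 fold changes of 0.18, 0.19, 0.14, 0.20 and 0.23, adjusted p 0.0561 to 0.494), and the other 4 did. Without WT 2 Epc1 moved to 0.18, Ep300 to 0.19 and Psme4 to 0.13, and without WT 1 Chd9 moved to 0.28, with none of these passing. Over all alternatives Epc1 and Chd9 passed in 4 of 15, Psme4 in 5, Ep300 in 10, Crebbp and Supt16 in 11, and Herc2, Mdc1 and Ybx2 in 12. The listed genes that passed numbered 0 without DKO 2, 4 without DKO 1, 5 without WT 2 and 13 without WT 1.

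Markers of cell types were read beside these values. None of 10 elongating spermatid markers passed in any comparison by edgeR (4, 3 and 3 at an unadjusted p under 0.05 in P2KO against WT, DKO against WT and DKO against P2KO) or by DESeq2 on all 6 libraries, but 1 passed in DKO against P2KO when edgeR had the gene length offset. Their summed level was 11258 and 11318 CPM in WT, 10566 and 10964 in P2KO and 11591 and 10922 in DKO. All 10 had a fold change below zero in P2KO (median log2 fold change -0.084) and 6 of 10 in DKO (median -0.031). The P2KO sums were thus below WT, and the DKO libraries lay on either side of it. None of 10 round spermatid markers passed against WT (2 in P2KO and 1 in DKO at an unadjusted p under 0.05), with sums of 2952 to 2972.5 CPM in WT, 3015 to 3070.5 in P2KO and 2873 to 2933 in DKO. Of 8 Leydig cell markers 5 passed in DKO by edgeR, 4 higher (Star, Cyp11a1, Cyp17a1 and Hsd3b6) and 1 lower (Hsd3b1), against 3.22% of all tested genes, and 2 by DESeq2 on all 6 libraries. Their sums were 744 to 759 CPM in WT, 768 to 856 in P2KO and 806 to 976 in DKO. Of 10 spermatocyte markers 1 passed against WT, Sycp2 in DKO (0.23, adjusted p 0.0123), with sums of 1352 to 1365 CPM in WT, 1350.1 to 1382 in P2KO and 1398 to 1424 in DKO. None of the 10 Sertoli cell, 10 spermatogonium, 5 peritubular muscle or 6 macrophage markers or of the 3 blood markers with enough counts passed by edgeR against WT (at an unadjusted p under 0.05, 1, 1, 1, 2 and 2 in P2KO and 0, 1, 0, 1 and 2 in DKO). The summed levels were 1206 to 1249 CPM in WT, 1241 to 1288 in P2KO and 1107.5 to 1256 in DKO for Sertoli cells, and 586 to 605, 595 to 636 and 609.8 to 616 for spermatogonia. They were 59.96 to 65.0, 54.0 to 61.7 and 60.3 to 71.0 CPM for peritubular muscle and 59.0 to 67.8, 55.6 to 63.3 and 62.0 to 67.4 for macrophages. In DKO against P2KO the round spermatid marker Spaca1 passed by edgeR (-0.25, adjusted p 0.0402), and no round spermatid marker passed with the gene length offset or with DESeq2 on all 6 libraries. Of 10 spermatocyte markers 1 passed in DKO against P2KO with DESeq2 on all 6 libraries, and 0 by edgeR. The Leydig cell marker Hsd3b6 also passed in that comparison (0.63, adjusted p 2.93e-07). All 10 Sertoli cell markers were above zero in P2KO (median 0.11) and 3 in DKO (median -0.052), and all 10 were below zero in DKO against P2KO. The medians were -0.15 and -0.12 for macrophages, -0.20 and 0.074 for peritubular muscle, 0.061 and 0.046 for spermatogonia and -0.64 and -0.61 for blood. The summed blood markers were 32.5 and 43.0 CPM in WT, 21.7 and 37.0 in P2KO and 31.9 and 31.5 in DKO. Both DKO libraries lay below both WT libraries, DKO 1 by little, and P2KO 2 lay between the WT libraries. None of the 6 epididymal markers had enough counts to be tested, and the highest had 9 counts in a library. The part of cell makeup in the lower levels of Tnp2, Tnp1 and Prm1 was not tested. Tssk6 is both a marker of elongating spermatids here and a gene of the kinase list.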

How the data were processed

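Testis RNA of 2 mice each of the WT, P2KO and DKO strains was sequenced in pairs of reads from strand-specific libraries made after poly(A) selection, so an mRNA with a shorter tail could be recovered less. Reads had been trimmed by the authors (Trim Galore) and mapped to GRCm38 by STAR, whose raw counts per Ensembl gene were deposited. Versions, and the strand setting of the counting, are not given in the sources used here. Opposite-strand overlaps (Tnp1 with 1700027A15Rik over 40 exon bases, Chd5 with Gm13645 over 101) are therefore uncertain.

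Counts were analysed with edgeR 4.0.16 in R 4.3.3: filterByExpr with a minimum count of 10, TMM scaling (factors 0.984 to 1.02), and glmQLFit and glmQLFTest with genotype as the only term in all 6 libraries. Adjustment was by Benjamini-Hochberg over 20744 genes, and an adjusted p under 0.05 was a call. The SE is the log2 fold change divided by the square root of F. Normalized counts are counts divided by the scaled library size relative to its geometric mean, and levels per kilobase use the merged exons of GENCODE mouse release 21. The fit was also run on counts simulated with its own estimates of spread and without a length trend. That run does not bear on the length trend seen here. Alternatives were RLE or upper-quartile scaling, no filter or a mean of at least 50 counts, a replicate block, a gene length offset (lowess, span 0.3) with and without the block, genes off chromosome 4, DESeq2 1.42.0, edgeR on 2 genotypes, and leaving out each library, which leaves 1 library in its genotype and takes the spread from the others. Their use on the pathway lists and on the median of the members was added after the data had been seen. No near-identical copy of a member was found by BLAST other than Gm28043 for Rnf8. Same-numbered libraries did not deviate together (correlations -0.057 to 0.057).

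The members and all lists were chosen with earlier results of these data known. Named genes are the members, the called genes of each pathway list with its 2 most abundant genes, and the 5 nearest patterns of each called member. Marker genes are given as lists, apart from Sycp2, Spaca1 and the called Leydig cell markers, which were named after their values had been seen.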

Additional observations from a re-analysis of the deposited data

How the results depend on the processing

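Of the 450 values that the alternatives gave for the 10 genes, 403 had the direction and the call of the reported value. The values of Tnp2, Tnp1, Prm1, Prm2, Prm3, Hils1 and H1fnt against WT were below zero in all 15 alternatives of each comparison. The alternatives refit the same libraries, so a constant sign is not independent support. The small number of mice limits every call, and where a call was lost the cause was not tested. The alternatives also changed the number of the 10 genes that passed. Without a filter on low counts, 4 passed in P2KO against WT (140 genes in all), 4 in DKO against WT and 1 in DKO against P2KO. With the gene length offset, alone or with the replicate block, 0 passed in DKO against WT and 1 in DKO against P2KO. DESeq2 on all 6 libraries gave 0 in DKO against WT, and DESeq2 or edgeR on the 2 genotypes compared gave 1 in DKO against P2KO. Leaving out 1 library gave 0 to 4 in P2KO and in DKO against WT.

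Over all genes, calls in P2KO against WT (70) numbered 24 off chromosome 4, 41 with DESeq2 on all 6 libraries, 40 with DESeq2 on the 2 genotypes and 53 to 311 with 1 library left out. In DKO against WT (668) they numbered 403 and 296 with DESeq2 and 250 to 1065 with 1 library left out, and in DKO against P2KO (250) they numbered 162 with DESeq2 on all 6 libraries, 579 with edgeR on the 2 genotypes and 108 to 162 with 1 library left out. With the replicate block, which pairs libraries that share only a number, P2KO against WT gave 45 genes, and the members called in each comparison were the same as without it.

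Signs turned only for values that had not passed. In DKO against P2KO, Prm1, Prm3 and Tnp1 moved to 0.052, 0.018 and 0.041 with the gene length offset and to 0.056, 0.019 and 0.046 with the offset and the replicate block, and Hils1 to -0.00065 under upper-quartile scaling. With 1 library left out the same comparison ranged from -0.13 to 0.11 for Prm1, -0.069 to 0.12 for Prm2, -0.14 to 0.023 for Prm3, -0.17 to 0.12 for Tnp1 and -0.039 to 0.052 for Hils1. In P2KO against WT, Chd5 ranged from -0.0070 to 0.24 and Rnf8 from -0.11 to 0.043. With the length of the longest coding transcript in place of merged exons, the ratio of Prm1 to Prm2 was 0.599 in WT, 0.584 in P2KO and 0.570 in DKO, which changes every library by the same factor and so cannot change their order. The WT mean of Tnp2 to Prm2 moved from 0.971 to 0.732 and that of Tnp1 to Prm1 from 0.902 to 0.741. How near the levels per kilobase of these genes lie to each other therefore depends on the length used.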
